A study of Mus musculus with 4 samples.

Results

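Non-cycling, Pax7-positive cells of a mouse muscle progenitor culture (MPC) were set against the same kind of cell from freshly isolated satellite cells (fiSC), with 1 single-cell RNA library on each side. The cells were chosen by their own transcripts. Barcodes had at least 5000 UMIs (unique molecular identifiers, each standing for 1 captured transcript), at least 500 detected genes and at most 10% mitochondrial UMIs. A cell then needed at least 2 Pax7 UMIs, 0 Myog UMIs, at most 1 UMI summed over Mki67, Top2a, Cenpf, Cdk1 and Ccnb1, and less than 0.5% of its UMIs from Col1a1, Col1a2 and Dcn. This gate kept 995 MPC cells and 1517 fiSC cells, 2512 of the 28363 cell barcodes deposited for the 4 libraries of the series.

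The series asked how muscle stem cells taken from the animal compare with those grown in culture. All mice carried the Pax7-nGFP reporter. The fiSC library held GFP-positive cells sorted from limb muscle of 3 male mice aged 13 weeks, pooled after digestion with collagenase. The MPC library came from the muscle of a male aged 16 weeks, whose cells went through 2 passages as myoblasts, followed by 5 passages in 5 µM Forskolin, 5 µM Repsox and 3 µM CHIR9901, added to a medium with FBS, KnockOut Serum Replacement and basic FGF. These cells were released with trypsin and not sorted. The other 2 libraries, myoblasts at passage 2 from a male aged 16 weeks and activated satellite cells (ASC) sorted 3 days after cardiotoxin injury from 17 tibialis anterior muscles of male and female mice aged 18 to 24 weeks, serve here only for levels given side by side. With 1 library per group there was no replicate check and no test, and the animal, its age, the sort, the digestion and the library cannot be told apart from the culture.

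Satellite cells are the resident stem cells of skeletal muscle. They lie between the fibre and its basement membrane, carry the transcription factor Pax7, and rest outside the cell cycle in uninjured muscle under the control of Notch signalling and of receptors such as the calcitonin receptor. On activation they induce Myod1 and divide, and Myog marks the cells that leave the cycle to form fibres. Digestion of muscle and cell sorting are known to induce immediate early and heat shock genes in satellite cells, and forskolin raises cAMP, Repsox blocks the TGF-beta receptor kinase, and CHIR compounds inhibit GSK3 and so mimic Wnt signalling.

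The gate took very different parts of the 2 libraries. It kept 81.0% of the 1873 fiSC cells that passed the filter on depth and 10.6% of the 9349 MPC cells. Of the MPC cells with Pax7 and no Myog, 22.4% passed the limit on cycle genes, against 97.7% in fiSC. Among the gated cells 422 MPC and 67 fiSC cells carried 1 UMI of the 5 cycle genes, just inside the limit, and 246 and 14 further cells had 2 UMIs, just outside it. For Pax7, 46 MPC and 153 fiSC cells had 2 UMIs, just inside, and 36 and 180 had 1, just outside. The depth of the gated cells was alike, with a median of 9648 UMIs and 3199 genes per cell in MPC and 9892 UMIs and 2723 genes in fiSC, and the sums held 10141802 and 15887614 UMIs. No barcode was shared between the gated MPC and fiSC cells, 7 were shared between the complete libraries, and MPC and myoblast shared 164 overall and 0 among gated cells. Levels are given as CPM, the UMIs of a gene per 1000000 UMIs of the set. The 95% Poisson interval of a sum covers counting error only. For genes at 50 CPM or more it reached, averaged over its 2 sides, at most 8.8% of the value in MPC and 7.01% in fiSC. Below 50 CPM it was wider, such as 10.1 to 14.5 CPM for Jag1 at 12.1 CPM in MPC.

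The genes used by the gate are a description of it. Pax7 stood at 1055 CPM in MPC and 966 CPM in fiSC. Wherever a pair of levels is given without library names, MPC comes first and fiSC second. On that order the Pax7-nGFP reporter transcript was at 82.9 and 73.8 CPM. Myog was at 0 in both by construction, and the 5 cycle genes summed to between 0.189 and 15.9 CPM each. Dcn, a proteoglycan of fibroblasts, was at 65.9 and 4.28 CPM despite the limit on fibroblast genes. In MPC this came mostly from 49 of the 995 gated cells, which carried at least 2 UMIs of Crabp1, a retinoic acid-binding protein. Dcn was at 823 CPM in those 49 cells and 4.48 CPM in the other 946. Those 49 cells had a median of 13863 UMIs and 9 Pax7 UMIs, against 9648 and 9 in all gated MPC cells. The split on Crabp1 was chosen after its values were seen, and the counts of the gene lists below are given without these cells where they differ.

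Markers of other cell types were summed in both sets. The 10 fibroblast markers summed to 141 CPM in MPC and 167 CPM in fiSC, of which Dpt alone made 2.07 and 140.4 CPM. Of the other fibroblast markers, Pdgfra (10.4 and 0 CPM), Lum (13.5 and 1.95 CPM) and Ly6a (19.8 and 2.64 CPM) were higher in MPC. Col1a2 was lower in MPC (3.25 and 9.13 CPM). Pi16 (0.493 and 0.692 CPM) and Clec3b (0.0986 and 0.692 CPM) were low in both sets. Summed levels were lower for the 10 macrophage markers, at 9.56 and 4.59 CPM, with Ptprc, Lyz2 and the C1q genes at 0 in MPC. Fcer1g made 5.03 and 0.126 CPM of these sums. The 8 mural cell markers summed to 600.5 CPM in MPC and 242 CPM in fiSC. Most of both sums came from Notch3 (215 and 135 CPM) and Acta2 (205 and 76.5 CPM), which are also in the Notch and TGF-beta lists below. Pdgfrb was at 70.7 and 1.45 CPM, Abcc9 at 44.7 and 4.34 CPM, Kcnj8 at 17.6 and 2.14 CPM and Cspg4 at 3.85 and 1.83 CPM. The 8 endothelial markers summed to 23.7 and 207 CPM, of which Tek made 2.76 and 175 CPM, and Pecam1 was at 2.27 and 4.22 CPM. Flt1 (10.1 and 4.85 CPM) and Egfl7 (6.9 and 0.566 CPM) went the other way. Of 5 neutrophil markers, S100a8 was at 27.5 CPM in MPC and 0 in fiSC, and the others did not follow it. S100a9 and Retnlg were at 0 in both sets, Csf3r at 0.0986 and 0.126 CPM and Cxcr2 at 0.197 and 0.126 CPM. The part of other cells in the differences below was not tested. The 63 gated ASC cells held macrophage markers at 5695 CPM, so their levels are given sparingly.

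Of 25804 gene symbols, 9426 reached 10 CPM in at least 1 of the 2 sets and are called measured. A gene was called higher in a library at a ratio of at least 2-fold after adding 5 CPM to both values. By this rule 2485 genes were higher in MPC, which is 26.4% of those measured, and 1528 were higher in fiSC, which is 16.2%. MPC thus held 61.9% of the called genes. Under TMM scaling factors from edgeR, 1592 genes were higher in MPC and 2170 in fiSC, so that the MPC share of calls was 42.3%. The median log2 ratio of all measured genes was 0.32 on the CPM scale and -0.07 with TMM. Each gene list below is read against the 0.32, and its counts against the 26.4% and 16.2%. Differences past 8-fold numbered 145 genes in MPC and 254 in fiSC.

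**Figure D1:**
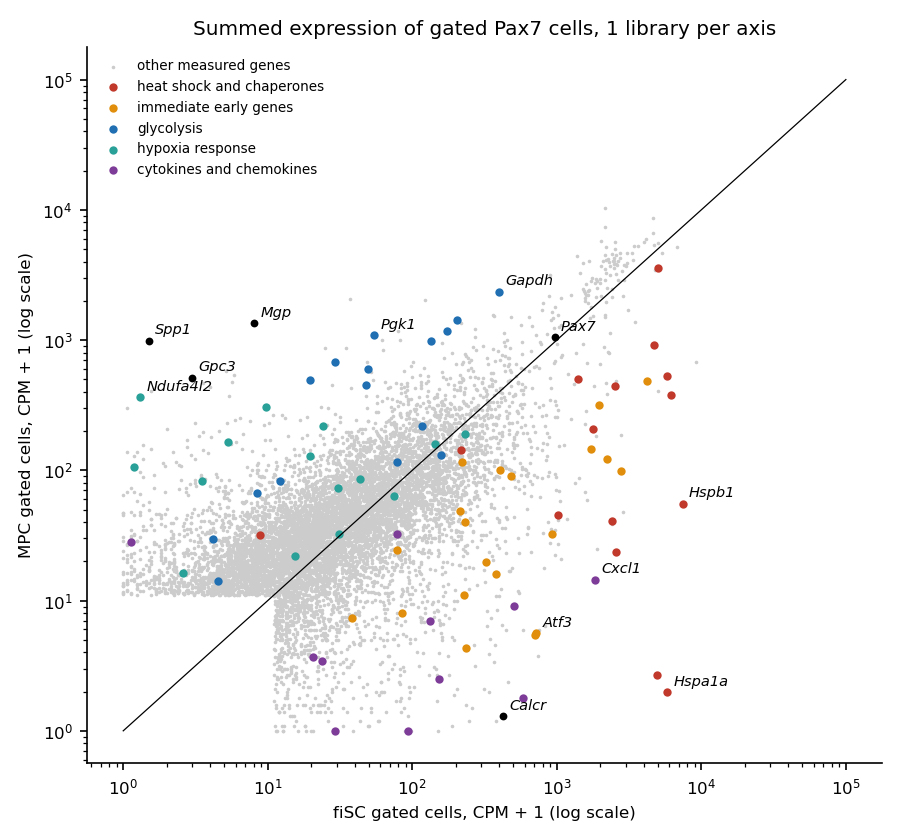
Summed expression of the gated cells, as CPM + 1 on log axes, with 1 point per measured gene, fiSC across and MPC up. The line marks equal levels. Pax7 lies near it, most heat shock and immediate early genes lie below it and most glycolysis genes above it.

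The genes with the largest ratios in MPC among those at 50 CPM or more were Spp1, Mgp, Gpc3, Edil3, Ndufa4l2, Basp1, Sema3a, Crabp1, Hmga2, Fabp5, Orc2 and Pde1a. Mgp, a matrix protein that binds BMPs, was at 1344 CPM in MPC and 7.05 CPM in fiSC, a ratio of 112-fold after the pseudocount. Gpc3, a cell surface proteoglycan, was at 513 and 2.01 CPM, and only 1.01 CPM in the myoblasts from which this kind of culture starts. Spp1, the secreted protein osteopontin, was at 989 and 0.504 CPM, but at 12273 CPM in myoblasts. Within MPC 79.0% of the Spp1 UMIs lay in the top 10% of cells at equal depth. Basp1 (580.0 and 4.15 CPM) and the guidance factor Sema3a (471 and 2.58 CPM) were also high in myoblasts, at 458 and 374 CPM. Orc2, a subunit of the origin recognition complex, stood at 2081 CPM in MPC and 36.00 CPM in fiSC, and at 1790.0 CPM in myoblasts against 109 CPM in ASC. Counts under this symbol were thus high in both cultures and low in both sets of sorted cells, and no read positions were at hand to check the locus.

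The genes with the largest ratios in fiSC were Hspa1a, Hspa1b, Hspb1, Tnfaip6, Cxcl1, Pim1, Dnajb1, Calcr, Erfe, Hmcn2, Maff and Atf3. Of these 12, 4 were heat shock genes and 2, Maff and Atf3, immediate early genes. Erfe, the hormone erythroferrone, was at 5.42 CPM in MPC and 826 CPM in fiSC. Hmcn2, a matrix protein, was at 4.93 and 752 CPM, and the kinase gene Pim1 at 2.76 and 734 CPM. In myoblasts these 3 genes were at 1.8, 6.62 and 2.24 CPM, so both cultures were low.

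**Figure D2:**
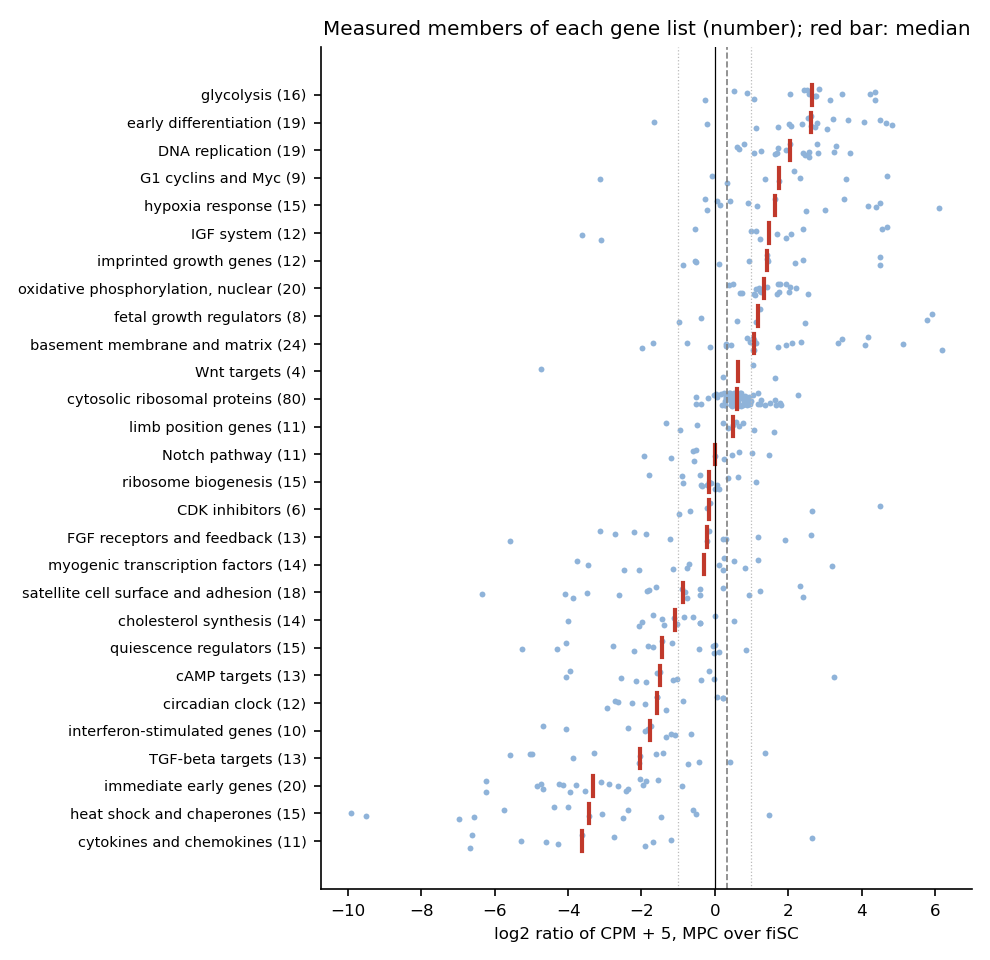
Log2 ratio of CPM + 5, MPC over fiSC, for each measured member of 28 gene lists (points), with the list median as a red bar and the number of measured members in brackets. The dashed line is the median of all measured genes (0.32), the dotted lines mark 2-fold. Medians run from -3.63 for cytokines and chemokines to 2.64 for glycolysis.

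Several satellite cell surface genes and regulators of rest were lower in the cultured cells, although both sets had been selected on Pax7. Among 18 surface and adhesion genes 8 were higher in fiSC and 3 in MPC, with a median log2 ratio of -0.85. With TMM 11 were higher in fiSC and 2 in MPC. Calcr, the calcitonin receptor that holds satellite cells at rest, had 3 UMIs in all 995 MPC cells (0.296 CPM) and 424 CPM in fiSC, a ratio of 1432 with a 95% counting interval of 489.7 to 6945. At 5000 UMIs per cell 45.02% of fiSC cells and 0.101% of MPC cells had a Calcr UMI, and 58.1% and 0.101% without thinning. Sdc4, a heparan sulphate proteoglycan of satellite cells, was at 187 CPM in MPC and 2793 CPM in fiSC. Vcam1, an adhesion molecule used to sort these cells, was at 31.5 and 618 CPM, and Cd34 at 0.986 and 62.2 CPM. The lower surface genes in MPC also took in the chemokine receptor Cxcr4 (4.63 and 53.5 CPM), the tetraspanins Cd82 (94.5 and 351 CPM) and Cd9 (131 and 409.5 CPM), and Cav1 (138 and 486 CPM).

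In the other direction, the M-cadherin gene Cdh15 was at 151 CPM in MPC and 62.2 CPM in fiSC, N-cadherin (Cdh2) at 44.1 and 4.78 CPM and Sdc3 at 38.7 and 3.21 CPM. Integrin alpha 7 (Itga7, 109 and 54.9 CPM), integrin beta 1 (Itgb1, 374 and 497 CPM), the FGF receptor Fgfr4 (172 and 146 CPM) and Tenm4 (173 and 232 CPM) differed by less than 2-fold.

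None of 15 regulators of quiescence was higher in MPC, and 9 were higher in fiSC, with a median log2 ratio of -1.43. Against only the fiSC cells with the lowest share of stress transcripts, described below, 1 was higher in MPC and 8 in fiSC. Chrdl2, a secreted BMP antagonist, had 1 UMI in MPC and was at 188 CPM in fiSC, a ratio of 1909.9 with a counting interval of 343 to 75463. It was at 0 in the gated ASC and myoblast cells. Spry1, an inhibitor of growth factor signalling needed for the return to rest, was at 41.5 CPM in MPC and 209.5 CPM in fiSC. The antiproliferative genes Btg1 and Btg2 were at 226 and 1562 CPM and 39.2 and 865 CPM, and Zfp36, which destabilises messenger RNAs, at 21.99 and 443 CPM. Several of these genes went with the stress transcripts. In the fiSC cells with the low, middle and high stress share, Btg2 was at 219, 536 and 1758 CPM, Zfp36 at 88.9, 283 and 913 CPM and Socs3 at 55.4, 106 and 401 CPM. Btg1 was at 1449, 1692 and 1542 CPM and Chrdl2 at 186, 187 and 192 CPM, so these 2 genes did not follow the stress share. Other members stood level: Gas1 at 334 and 337 CPM, Foxo1 at 78.6 and 80.9 CPM, Foxo4 at 12.8 and 12.8 CPM and the imprinted gene Peg3 at 611 and 565 CPM. Gas1 was at 46.9 CPM in myoblasts and 71.2 CPM in ASC, both under the MPC and fiSC sums, but in fiSC it ran from 162 CPM at the low stress share to 502 CPM at the high one.

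Among the myogenic transcription factors, Pax7 was alike by the gate and the determination factors were not. Myf5 was at 72.7 CPM in MPC and 426 CPM in fiSC, 5.55-fold lower in MPC after the pseudocount. Myod1 was at 35.2 and 434 CPM, and at 498 CPM in myoblasts. Msc (musculin), a repressor of differentiation, was at 24.6 and 396 CPM, and Pax3 at 11.4 and 31.2 CPM, a difference that ended under 3 of the 19 alternatives. Nfix, which drives the fetal muscle programme, was at 63.1 and 278 CPM. Mef2c, a differentiation factor, was at 73.5 and 3.59 CPM and Tcf12, an E protein partner of Myod1, at 505 and 222 CPM, so that 2 of the 14 measured factors were higher in MPC and 5 in fiSC. Eya1 (146 and 241 CPM), Eya4 (149.97 and 127 CPM) and Mef2a (229 and 193 CPM) were within 2-fold. Under TMM scaling the Tcf12 log2 ratio was 0.77, under the 2-fold line.

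The Notch pathway, which maintains satellite cells, showed little net difference. Of 11 measured genes 2 (18.2%) were higher in each library, against 26.4% of all measured genes in MPC and 16.2% in fiSC. The median log2 ratio was -0.01, with a range from -0.38 under TMM to 0.33 against the fiSC cells of low stress share. The target gene Hey1 was at 44.96 CPM in MPC and 45.3 CPM in fiSC and Heyl at 93.2 and 65.8 CPM, while myoblasts had 1.8 and 6.62 CPM. Hey1 and Heyl therefore stood at similar levels in fiSC and in the gated cells of the progenitor culture, and were low in gated myoblasts. Hes1 was higher in MPC (273 and 94.3 CPM) and also high in myoblasts, at 389 CPM. The receptor Notch1 was at 149.8 and 71.6 CPM, Notch2 at 80.8 and 117 CPM and Notch3 at 215 and 135 CPM. Notch1 lost its 2-fold difference under 4 of the 19 alternatives run, TMM among them. The ligand Jag1 was lower in MPC (12.1 and 59.98 CPM), as was the coactivator Maml2 (82.9 and 197.8 CPM). In RefSeq promoters (GRCm38.p6, searched as described below for heat shock genes) the RBPJ core TGGGAA was on either strand in 4 of 12 Notch genes (33.3%), against 28.3% of all genes.

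**Figure D3:**
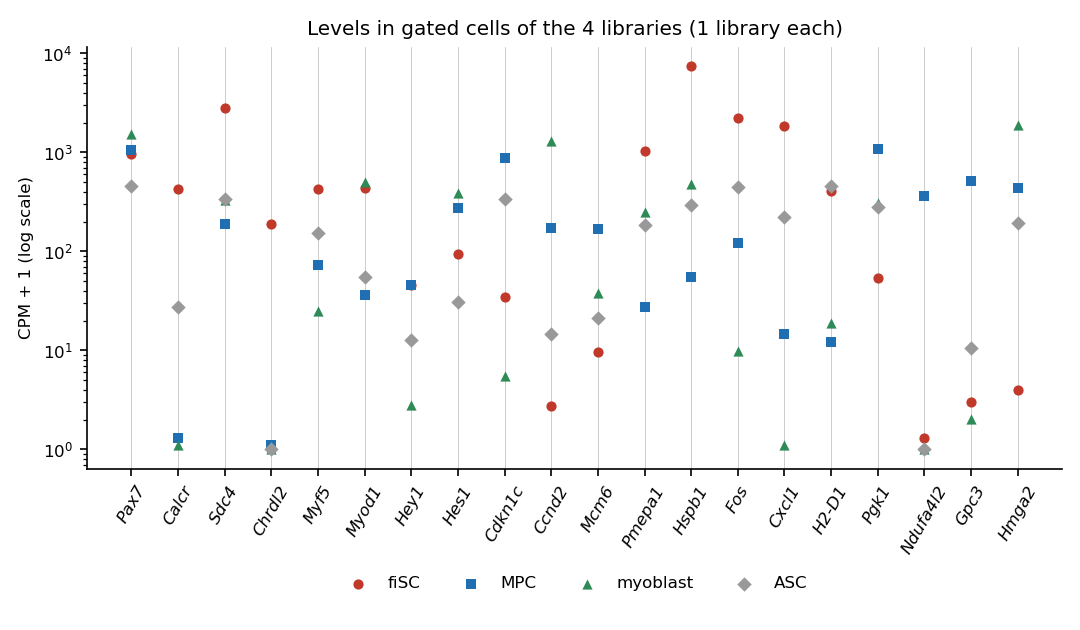
Levels of 20 genes in the gated cells of the 4 libraries, as CPM + 1 on a log axis, with 1 point per library and no error bars because each group is 1 library. Calcr and Chrdl2 are near the bottom of the axis in all libraries except fiSC (and, for Calcr, ASC), and Hey1 lies at the same height in fiSC and MPC.

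Genes of the cell cycle entry and of DNA synthesis were higher in the cultured cells even though mitotic transcripts had been gated out. Of 19 DNA replication genes 16 were higher in MPC and none in fiSC, with a median log2 ratio of 2.06. The replicative helicase gene Mcm6 was at 169 CPM in MPC and 8.56 CPM in fiSC, Mcm3 at 105 and 6.23 CPM and Mcm2 at 38.1 and 1.13 CPM. Lig1, the DNA ligase of replication, was at 113 and 7.55 CPM, and Cdt1, a licensing factor, at 40.1 and 2.64 CPM. Pcna (123 and 69.6 CPM) and Rrm2 (26.3 and 15.5 CPM) did not reach 2-fold. Mcm6 had a UMI in 50.5% of the gated MPC cells thinned to 5000 UMIs, in 48.5% of the 3451 MPC cells with Pax7 above the cycle limit, and in 3.23% of the gated fiSC cells, and without thinning in 69.9, 75.8 and 6.79%. The replication list as a whole was lower inside the gate, at 1438 CPM against 2201 CPM in the 3451 cells. It summed to 306 CPM in gated fiSC cells. With the limit set to 0 UMIs of the cycle genes, 573 MPC cells remained and the median log2 ratio of the list was 1.90. The gate therefore removed cells with transcripts of the late cycle, and the MPC cells inside it are non-cycling only in that sense.

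Of 9 measured G1 cyclin, kinase and Myc genes 6 were higher in MPC and 1 in fiSC. Cyclin D2 (Ccnd2) was at 171 CPM in MPC and 1.76 CPM in fiSC, and at 117 CPM in MPC without the Crabp1 cells. Cyclin E1 (Ccne1) was at 77.1 and 1.89 CPM, Ccne2 at 47.03 and 6.73 CPM, the D-cyclin partner Cdk4 at 179.8 and 31.7 CPM and Ccnd1 at 197 and 73.01 CPM. The Ccnd1 log2 ratio was 1.37 and 0.98 with TMM. Myc went the other way, at 40.6 and 397 CPM. Myoblasts carried 1304 CPM of Ccnd2 and 787 CPM of Ccnd1.

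Of 6 measured inhibitors of cyclin-dependent kinases 2 (33.3%) were higher in MPC, Cdkn1c (p57) and Cdkn2a, and none in fiSC. Over all measured genes these shares were 26.4% and 16.2%. Cdkn1a (p21) lay just under the line at 175 and 349.5 CPM, with a log2 ratio of -0.98 that became -1.38 with TMM and -1.10 without the Crabp1 cells, where 1 of the 6 was higher in fiSC. Cdkn1c was at 869 CPM in MPC and 33.5 CPM in fiSC, 22.7-fold higher after the pseudocount, and at 4.49 CPM in myoblasts and 339 CPM in ASC. At 5000 UMIs per cell 72.1% of gated MPC cells had a Cdkn1c UMI, against 21.8% of 142 MPC cells with at least 5 Crabp1 UMIs and no Pax7 or Myog, and 8.77% of gated fiSC cells (unthinned 84.1, 57.7 and 13.4%). The median depths were 9648, 17689 and 9892 UMIs. The level was 1037 CPM in the MPC cells with Pax7 above the cycle limit and 4032 CPM in the 3275 MPC cells with at least 2 Myog UMIs. Cdkn1c was spread unevenly over the gated cells, with 46.5% of its UMIs in the top 10% of them. Cdkn1b (p27) was at 65.96 and 72.9 CPM and Cdkn2a at 38.5 and 1.95 CPM, with Cdkn2a at 309 CPM in myoblasts.

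Stress response genes were higher in the fresh cells. Heat shock genes, which encode chaperones that refold damaged proteins, made up 5.18% of all UMIs in fiSC and 0.684% in MPC. Of 15 such genes 12 were higher in fiSC and 1 in MPC, with a median log2 ratio of -3.44. The inducible HSP70 gene Hspa1a had 10 UMIs in MPC and 92549 in fiSC, or 0.986 and 5825 CPM. Its near-identical copy Hspa1b was at 1.68 and 4913 CPM, and how reads were split between the copies is uncertain. Hspb1 (HSP27) was at 54.5 and 7432 CPM, the HSP40 gene Dnajb1 at 22.5 and 2584 CPM and the HSP110 gene Hsph1 at 39.6 and 2405 CPM. The constitutive Hspa8 was at 908 and 4736 CPM, the chaperone of the endoplasmic reticulum Hspa5 at 381 and 6182 CPM, and Hsp90ab1 at 3544 and 5044 CPM, the last under 2-fold. Hspb8 was the member higher in MPC (30.9 and 7.87 CPM).

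Many of these genes, though not all of the list, are known targets of heat shock factors, which bind inverted repeats of GAA. RefSeq promoters (GRCm38.p6, 250 bases before to 50 after the start) were found for 12 of the 15 genes, and 9 of those 12 (75%) held the core GAANNTTC on either strand (it reads the same on both), against 9.04% of 27025 genes with a promoter in the table. Windows of 50 bases upstream of the start are shown for Hspa1a, Hspb1 and Dnaja1 to show this core, in capitals.
Hspa1a, chr17:34972232-34972281, minus strand: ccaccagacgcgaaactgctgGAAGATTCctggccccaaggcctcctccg
Hspb1, chr5:135887791-135887840, plus strand: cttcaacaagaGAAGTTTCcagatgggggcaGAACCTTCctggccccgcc
Dnaja1, chr4:40722323-40722372, plus strand: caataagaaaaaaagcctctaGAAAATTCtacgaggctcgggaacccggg
The Hspb1 window holds the core at 2 places and the others at 1. The Hspa1b window, chr17:34959314-34959363 on the minus strand, has the same 50 letters as that of Hspa1a. The list was chosen by known function, so a high share was built in. A match is a description of the letters, and binding was not measured.

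Immediate early genes, the transcription factors and regulators switched on within minutes of a stimulus, were higher in fiSC in 19 of 20 cases, with a median log2 ratio of -3.31. Fos was at 122 CPM in MPC and 2224 CPM in fiSC, Fosb at 31.2 and 927 CPM, Jund at 98.2 and 2758 CPM and Egr1 at 486 and 4189.7 CPM. Atf3, a stress-induced factor, was at 4.63 and 720.5 CPM, and Maff at 4.44 and 707 CPM. Ier3 was the member under 2-fold (115 and 219 CPM), and without the Crabp1 cells all 20 were higher in fiSC. The AP-1 site TGANTCA, searched in the same promoters on both strands, was in 1 of 16 of these genes (6.25%), against 8.97% of all genes, and the cAMP response element TGACGTCA in 2 of 16 (12.5%), against 2.03%. Myoblasts were also low, with 8.86 CPM of Fos and 97.96 CPM of Egr1.

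The stress transcripts varied from cell to cell in fiSC and little in MPC. Immediate early and heat shock genes together took a median of 4.92% of a fiSC cell's UMIs (5 to 95% of cells 1.67 to 17.5%) and 0.851% of an MPC cell's (0.603 to 1.13%). Per cell at 5000 UMIs, heat shock genes gave 175 UMIs (5 to 95% of cells 48 to 675) in fiSC and 34 UMIs (5 to 95% of cells 21 to 49) in MPC. Hspa1a had no UMI in 31.8% of the fiSC cells at that depth, and a median of 3 UMIs.

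**Figure D4:**
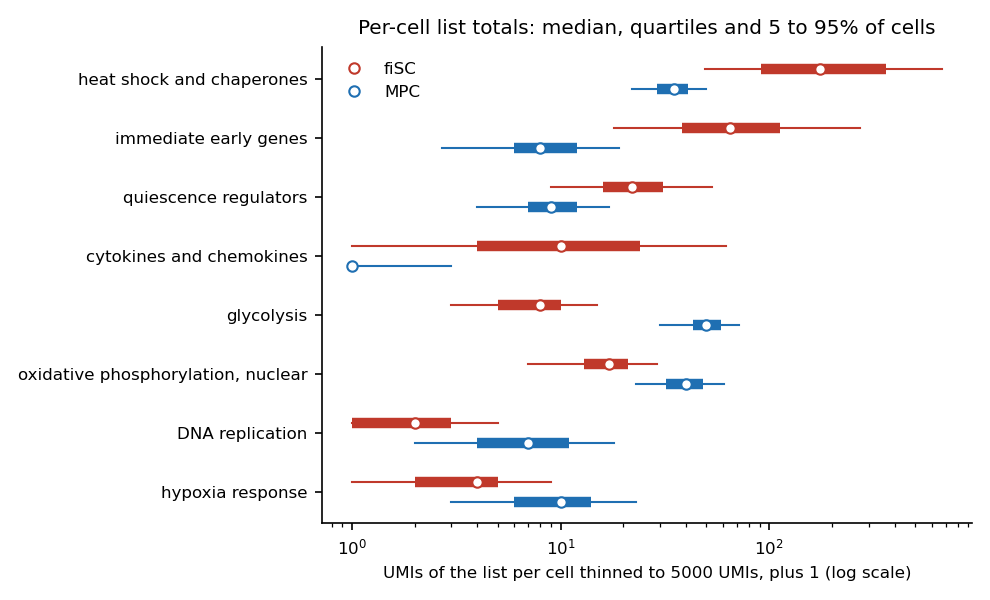
UMIs of 8 gene lists per cell thinned to 5000 UMIs, plus 1, on a log axis. Circles are medians, thick bars the quartiles and thin bars the range from 5 to 95% of cells (1517 fiSC cells in red, 995 MPC cells in blue). The heat shock medians are 175 UMIs in fiSC and 34 in MPC, the glycolysis medians 7 and 49.

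The fiSC cells were ordered by this stress share and set in 3 equal parts, a split chosen after the data had been seen. In the part with the lowest share (506 cells, median 2.31%) Hspa1a was at 194 CPM and Fos at 233 CPM, and in the part with the highest share (506 cells, median 12.1%) at 14300.4 and 5209.9 CPM. Even the low part lay above the MPC values for Hspa1a (0.986 CPM) and Hspb1 (1031 against 54.5 CPM). With only this part as the fiSC side, the median log2 ratio of heat shock genes was -1.88 and that of immediate early genes -1.77, and Fos did not reach 2-fold, at -0.91. Satellite cell genes differed between the parts in both directions. Calcr was at 191, 326 and 725 CPM from the low to the high part, Pax7 at 743, 980.0 and 1153 CPM and Hes1 at 40.1, 64.5 and 171 CPM. Myod1 ran the other way, at 711, 462 and 157 CPM, as did Sdc4 at 3588, 3118 and 1769 CPM. Myf5 stayed between 404 and 441 CPM in all 3 parts. Calcr, Sdc4, Vcam1, Myf5, Myod1 and Msc were above MPC in each part.

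**Figure D5:**
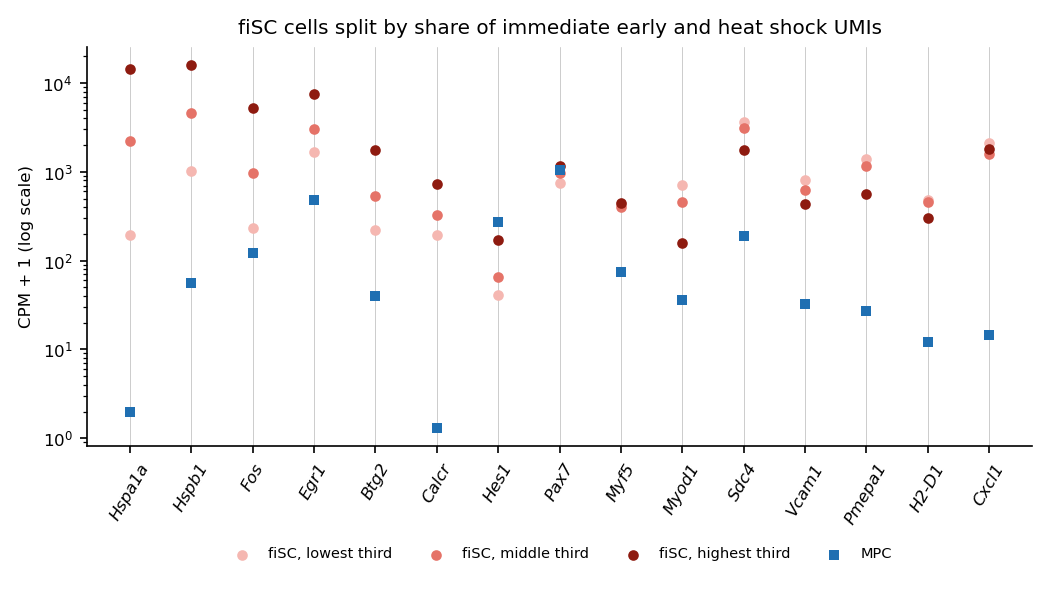
Levels of 15 genes, as CPM + 1 on a log axis, in the gated fiSC cells split in 3 equal parts by the share of immediate early and heat shock UMIs (circles, light to dark) and in MPC (squares). The first 4 genes belong to the lists used for the split. Calcr and Hes1 lie higher in the darker points, Myod1 and Sdc4 lower.

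Inflammatory genes were higher in the fresh cells. Of 11 measured cytokines and chemokines 10 were higher in fiSC and 1 in MPC, with a median log2 ratio of -3.63, or -4.59 with the members at 0 in MPC set to their bound. The neutrophil attractant Cxcl1 was at 13.5 CPM in MPC and 1831 CPM in fiSC and the monocyte attractant Ccl2 at 8.09 and 506 CPM. Tnfaip6, an induced hyaluronan-binding protein, was at 0.789 and 586 CPM. Cxcl2 had no UMI in MPC and was at 92.2 CPM in fiSC, at least 312-fold higher against a floor of 3 UMIs over the MPC sum, and Cxcl12 was at least 95.8-fold higher. Ptgs2, the inducible cyclooxygenase, was higher in MPC at 27.02 and 0.126 CPM, but at 5.12 CPM without the Crabp1 cells, where its ratio no longer reached 2-fold and 10 of the 10 measured genes were higher in fiSC. Across the 3 parts of fiSC by stress share, Cxcl1 was at 2090.2, 1586 and 1827 CPM and Tnfaip6 at 539, 737 and 485 CPM. Other members were higher with more stress, with Ccl2 at 232, 489.6 and 769.8 CPM, Cxcl10 at 25.6, 142 and 273 CPM and Ccl7 at 74.4, 123 and 192 CPM. Against the low part the list median was -2.66, over 10 measured genes.

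Genes that interferons induce were higher in fiSC in 9 of 10 measured cases and in MPC in none, with a median log2 ratio of -1.78. The MHC class I genes H2-D1 and H2-K1 were at 11.2 and 409 CPM and 12.1 and 280.1 CPM, and their partner B2m at 101 and 222 CPM. Isg15 was at 2.07 and 21.2 CPM and Irf1 at 17.3 and 111 CPM. Myoblasts had 17.8 CPM of H2-D1 and ASC 458 CPM. Irf1 went with the stress share, from 27.2 CPM in the low part of fiSC to 212 CPM in the high part, and did not reach 2-fold against the low part.

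Signalling targets were examined because the culture medium acts on 3 pathways. Of 13 measured genes that respond to cAMP, 9 were higher in fiSC (8 without the Crabp1 cells) and 1 in MPC, with a median log2 ratio of -1.49. The cAMP response element was in 1 of 10 of the promoters found (10%). The phosphodiesterases that degrade cAMP stood at 806 and 2276 CPM (Pde4d) and 1133 and 2321 CPM (Pde4b). Pde4b was at 93.4 CPM in myoblasts, so MPC lay between. Its 2-fold difference from fiSC ended under 5 of the 19 alternatives. Pde10a (618 and 693 CPM) and Pde3b (101 and 103 CPM) were within 2-fold, against 123 and 18.1 CPM in myoblasts. Nr4a1, which is also an immediate early gene, was at 9.96 and 227 CPM, and at 38.3, 106 and 511 CPM over the parts of fiSC by stress share. Its log2 ratio of -3.95 was -1.53 against the low part. Nr4a3 was at 0.493 and 86.9 CPM, Crem at 22.3 and 117 CPM and the salt-inducible kinase Sik1 at 44.3 and 287 CPM. Areg, a ligand of the EGF receptor, was the exception at 83.7 CPM in MPC and 4.41 CPM in fiSC.

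Of 13 measured TGF-beta targets 9 were higher in fiSC and 1 in MPC (10 and 0 with TMM), with a median log2 ratio of -2.05. Pmepa1 and Skil, which dampen the pathway, were at 26.2 and 1026 CPM and 6.31 and 352 CPM, and the inhibitory Smad7 at 13.3 and 70.9 CPM. Ccn2, a matricellular growth factor, had 2 UMIs in MPC and 245 CPM in fiSC, a ratio of 1244 with a counting interval of 344 to 10277. The metalloproteinase inhibitor Timp3 was at 62.3 and 659 CPM. In myoblasts, grown without Repsox as far as the labels say, Pmepa1 was at 251, Skil at 101 and Smad7 at 59.6 CPM. MPC therefore had the lowest level of these 3 genes among the fiSC, myoblast and MPC sets. Within fiSC, Pmepa1 was at 1384 CPM in the part with the lowest stress share and 565 CPM in the part with the highest. Acta2, smooth muscle actin and also 1 of the mural markers, was higher in MPC (205 and 76.5 CPM), and its log2 ratio of 1.37 was 0.93 at its lowest over the alternatives.

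Of 14 Wnt target genes 4 were measured, too few for a pattern. Nkd1, a feedback inhibitor, was at 10.6 CPM in MPC and had no UMI in fiSC, at least 55.9-fold higher against a floor of 3 UMIs over the fiSC sum. Axin2, the most used reporter of the pathway, was at 3.35 and 3.15 CPM and not measured by the rule. Lef1 stood at 6.11 and 0.944 CPM and Tcf7 at 8.38 and 3.52 CPM, Dkk2 was at 12.3 and 3.4 CPM, and Bmp4 was lower in MPC (0.69 and 147 CPM). The difference of Dkk2 dropped under 2-fold in 9 of the 19 alternatives. The median was 0.63 over these 4 genes, -0.18 with TMM, where 3 genes were measured and none was higher in MPC, and 0.28 without the Crabp1 cells, with 3 measured and 1 higher on each side. For FGF, 3 of 13 measured genes (23.1%) were higher in MPC and 6 (46.2%) in fiSC, against 26.4% and 16.2% of all measured genes. The receptor Fgfr1 was at 153 and 1036 CPM, Fgf13 at 0.493 and 258 CPM and Fgf2 at 2.27 and 58.98 CPM, while the feedback genes Dusp6 (75.7 and 7.99 CPM) and Etv4 (18.4 and 1.26 CPM) were higher in MPC.

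Glycolysis genes were higher in the cultured cells. Of 16 glycolysis genes 13 were higher in MPC and none in fiSC, with a median log2 ratio of 2.64 against 0.32 over all genes. Pgk1 was at 1088 CPM in MPC and 53.5 CPM in fiSC, Tpi1 at 677 and 28.3 CPM, Eno1 at 489 and 18.7 CPM and Gpi1 at 593 and 48.6 CPM. Gapdh, at 2357 and 395 CPM, and Aldoa, at 1421 and 204 CPM, were 5.91-fold and 6.82-fold higher after the pseudocount. The first enzymes and 1 phosphofructokinase differed by less than 2-fold: Hk1 stood at 114 and 77.5 CPM, Hk2 at 218 and 115 CPM and Pfkp at 129.8 and 158 CPM. Myoblasts had 307 CPM of Pgk1 and 1231 CPM of Gapdh, between fiSC and MPC. Glycolysis transcripts numbered 49 UMIs (5 to 95% of cells 29 to 71) per 5000 in MPC and 7 UMIs (5 to 95% of cells 2 to 14) in fiSC, so these ranges of single cells did not meet.

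Genes induced by low oxygen through HIF were higher in MPC in 9 of 15 cases and in fiSC in none, with a median log2 ratio of 1.63. Ndufa4l2, an inducible subunit that limits respiration, was at 362 CPM in MPC and 0.315 CPM in fiSC and at 0 in the gated myoblast and ASC cells. Bnip3, a mitophagy receptor, was at 307 and 8.69 CPM, and the oxygen sensor Egln3 at 165 and 4.34 CPM. Car9, a carbonic anhydrase that is a standard hypoxia marker, stood at 104 CPM among MPC cells, and fiSC held 3 UMIs of it. Ndufa4l2 and Car9 were not confined to the Crabp1 cells, with 339 and 108 CPM in the other 946. Vegfa (157 and 143 CPM), Slc2a1 (84.5 and 42.6 CPM), P4ha1 (190.2 and 230.1 CPM) and Adm (20.8 and 14.4 CPM), which also answer to low oxygen, were within 2-fold.

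The core that HIF binds, ACGTG, was searched on both strands in the same promoters. It was present in 11 of 14 hypoxia genes (78.6%) and 9 of 16 glycolysis genes (56.2%), against 21.8% of all 27025 genes. The hypoxia list was made of genes known to be induced through HIF, so a high share was built in by that choice. The 27025 genes were all those with a promoter in the table, not only the measured ones. These shares describe the lists and not the cells. Windows of 50 bases are shown for Bnip3, Pgk1 and Ldha, whose core, in capitals (CACGT on the other strand), occurs more than once.
Bnip3, chr7:138909587-138909636, minus strand: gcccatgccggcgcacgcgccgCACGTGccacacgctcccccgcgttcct
Pgk1, chrX:106186937-106186986, plus strand: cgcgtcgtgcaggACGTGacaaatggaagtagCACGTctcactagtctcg
Ldha, chr7:46845725-46845774, plus strand: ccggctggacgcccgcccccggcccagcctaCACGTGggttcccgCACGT
In Bnip3 the 2 matches overlap on opposite strands as CACGTG, which is also an E-box read by other factors. Ldha was at 980.3 and 133 CPM.

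Nuclear genes of oxidative phosphorylation were higher in MPC in 16 of 20 cases, with none higher in fiSC and a median log2 ratio of 1.34. Ndufa4 was at 432 CPM in MPC and 69.6 CPM in fiSC, Cox7b at 442 and 90.5 CPM, Ndufc1 at 307 and 70.7 CPM and Ndufv2 at 177 and 39.7 CPM. With TMM 10 of the 20 remained higher. The mitochondrial transcripts themselves were alike, at a median of 3.37% of a cell's UMIs in MPC and 3.32% in fiSC. Sterol synthesis ran the other way, with 8 of 14 measured genes higher in fiSC and none in MPC. Idi1, an isomerase of the pathway, was at 18.9 and 95.4 CPM, Msmo1 at 17.3 and 82.5 CPM and the sterol sensor Insig1 at 16.9 and 64.96 CPM. Cytosolic ribosomal proteins took 27.2% of UMIs in MPC and 16.7% in fiSC, with a median log2 ratio of 0.61. Of 80 such genes 12 (15%) were called higher in MPC, a smaller share than the 26.4% of all measured genes. The count was 6 with TMM and 13 without the Crabp1 cells. Of 15 ribosome biogenesis genes 1 was higher on each side, Npm1 in MPC (1713 and 785 CPM) and Nop58 in fiSC (197.6 and 702 CPM). The Npm1 difference ended under 3 of the 19 alternatives, and with TMM none was higher in MPC and 3 in fiSC.

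Matrix genes, which build the niche around satellite cells, were higher in MPC in 15 of 24 cases and in fiSC in 2, with a median log2 ratio of 1.06. Fibronectin (Fn1) was at 263 CPM in MPC and 9.88 CPM in fiSC, laminin beta 1 (Lamb1) at 223 and 8.37 CPM, Col18a1 at 427 and 36.8 CPM and laminin alpha 4 (Lama4) at 88.1 and 3.46 CPM. Without the Crabp1 cells 11 of the genes were higher in MPC and 2 in fiSC, and with TMM 10 and 3. Col6a3 depended on these cells, with 207 and 1.01 CPM in all, 107 CPM in the 946 MPC cells and 1432 CPM in the 49. Fn1 was at 239 CPM in the 946. Col5a2 (124 and 504 CPM) and Lamc1 (88.2 and 293 CPM) were higher in fiSC, and the laminin of the muscle basement membrane, Lama2 (652 and 523 CPM), and Col4a1 (593 and 476 CPM) were within 2-fold.

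Growth genes known from fetal tissue were higher in MPC. Of 12 measured imprinted growth genes 7 were higher in MPC and none in fiSC (1 with TMM), with a median log2 ratio of 1.42. Dlk1, an inhibitor of differentiation, was at 149 CPM in MPC and 1.76 CPM in fiSC and at 0.449 CPM in myoblasts. Igf2 was at 27.02 and 1.07 CPM, Mest at 239 and 48.1 CPM, Grb10 at 701 and 253 CPM and Plagl1 at 308 and 112 CPM. In the IGF system 8 of 12 were higher in MPC and 2 in fiSC. The binding proteins Igfbp3 (232 and 4.22 CPM), Igfbp2 (122 and 0.378 CPM) and Igfbp5 (1062 and 270.5 CPM) and the receptor Igf1r (848 and 359 CPM) were higher in MPC, and the ligand Igf1 (4.04 and 73.2 CPM) and the adaptor Irs2 (16.8 and 264 CPM) in fiSC.

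Among fetal growth regulators 5 of 8 measured genes were higher in MPC and none in fiSC. Without the Crabp1 cells 4 were higher in MPC, and with TMM 3 in MPC and 1 in fiSC. Hmga2, a chromatin protein of growing tissue, was at 434 CPM in MPC and 2.96 CPM in fiSC, at 319 CPM in the 946 MPC cells without Crabp1 and at 1881 CPM in myoblasts. Lin28b, which blocks let-7 microRNAs, was at 75.2 and 9.69 CPM. Crabp1 itself stood at 299.7 CPM among the gated MPC cells, while fiSC held 1 UMI of it, and was at 11.7 CPM in the 946 by the choice of those cells. Gpc3, Mgp and Dlk1 behaved in the opposite way, with 543, 1419 and 158 CPM in the 946 cells and 143, 429 and 43.4 CPM in the 49. Without the 49 cells 2449 genes were higher in MPC and 1537 in fiSC, and 2380 of the former were among the 2485.

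Transcripts of muscle differentiation were higher in MPC in 17 of 19 measured cases and in fiSC in 1, with a median log2 ratio of 2.63, or 2.73 with Myh8 set to its bound. Cardiac and skeletal alpha-actin (Actc1 and Acta1) were at 138 and 0.0629 CPM and 163 and 5.04 CPM, the myosin light chains Myl1 and Mylpf at 181 and 2.33 CPM and 178 and 3.02 CPM, although Myog was at 0. Other cells of the same library carried them too. In the 142 MPC cells with at least 5 Crabp1 UMIs and no Pax7 or Myog UMI, Actc1, Acta1, Myl1 and Mylpf were at 56.6, 72.5, 68.7 and 81.7 CPM, and in the 3275 MPC cells with Myog at 2616, 1719, 1444 and 1687 CPM. At 5000 UMIs per cell Actc1 had a UMI in 46.3% of the gated MPC cells and 24.6% of the 142, and Mylpf in 53.97 and 27.5%. Unthinned these shares were 66.6 and 59.9% for Actc1 and 76.5 and 80.3% for Mylpf. The 10 markers of mature myofibres summed to 337 CPM in gated MPC and 38.0 CPM in gated fiSC cells. The part of free RNA from differentiated cells in these values was not tested. Desmin (Des) was level at 468 and 540.4 CPM, and the acetylcholine receptor gene Chrna1 was higher in fiSC (11.1 and 46.01 CPM).

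The same 142 cells had 26.6 CPM of Mgp, 66.8 of Gpc3, 49.4 of Cdkn1c and 3.8 of Dlk1, against 1344, 513, 869 and 149 CPM in the gated cells. At 5000 UMIs Mgp had a UMI in 94.3% of gated MPC cells and 11.97% of the 142 (unthinned 97.7 and 28.2%). Mgp and Gpc3 had been named for their large ratios in the gated cells, and the 142 cells were chosen to have no Pax7 UMI. The contrast is thus partly set by these choices. Between the gated cells and the 142, these 4 genes differed far more than Actc1, Acta1, Myl1 and Mylpf did. This does not hold for the MPC cells with Myog, where the actin and myosin genes were far higher than in either set.

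Clock genes and position genes complete the comparison. Of 12 measured circadian genes 8 were higher in fiSC and none in MPC. Nr1d1 was at 12.6 CPM in MPC and 130.0 CPM in fiSC, Arntl at 16.6 and 131 CPM, Cry1 at 8.28 and 82.4 CPM and Per2 at 3.94 and 28.7 CPM, while Rora was level at 1793 and 1728 CPM, against 74.1 CPM in myoblasts. The hour of collection is not given in the sources used here. Of 11 measured genes of limb position 2 (18.2%) were higher in MPC and 1 (9.09%) in fiSC, against 26.4% and 16.2% of all measured genes. Hoxa9 (26.2 and 19.3 CPM), Hoxa10 (33.9 and 17.7 CPM), Hoxc9 (26.9 and 39.8 CPM) and Hoxc10 (45.5 and 93.1 CPM) were within 2-fold, and Tbx15 was higher in MPC (53.6 and 14.2 CPM).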

How the data were processed

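Droplet-based 3' single-cell RNA libraries (10x Genomics) of 4 groups, 1 library each, were used as the authors deposited them, as unnormalized UMI counts for each gene in each cell barcode. The alignment used STAR 2.7.10b and the GRCm39 build, per the submitters' processing notes. UMI collapsing, cell calling and the annotation are not given in the sources used here, so strand use is unknown and overlapping genes cannot be told apart. The files carry no coordinates. Where a symbol had several features (22 symbols), their counts were added.

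UMIs of the gated cells were summed per library and scaled to CPM, computed here from the deposited counts. A pseudocount of 5 CPM was added to both sides of each ratio. A gene was measured at 10 CPM or more in either library and called at 2-fold. Cells of a library are not replicates, so no test was run. Intervals on sums are exact Poisson intervals at 95%, and a count of 0 was given a floor of 3 counts, 0.296 CPM in MPC and 0.189 CPM in fiSC. Shares of cells and per-cell totals were taken after thinning every gated cell to 5000 UMIs, which left out none. All cells passing the filter were given a doublet score by Scrublet, as in scanpy 1.11.5. Its automatic threshold marked 0% of MPC and 0.267% of fiSC cells and so did not work for MPC. Scores were therefore used only in an alternative, with cells at or above the quantile of an expected rate of 0.8% per 1000 cells left out.

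Genes were named by rule: the 12 largest ratios in each direction at 50 CPM or more without gate genes, mitochondrial genes, the reporter and unnamed gene models, up to 4 members of each list in its main direction and 2 in the other, and genes listed beforehand. List members outside the rule were named after their values were seen. The cells, the 28 gene lists and the 12 marker lists were chosen with earlier results of these data known, and the Crabp1 split and the split of fiSC by stress share after seeing the data. A few genes are not reported here. The size rule was tested on simulated data. Tools were Python 3.11.15 with numpy 2.4.6, pandas 2.3.3 and scipy 1.17.1, and R 4.3.3 with edgeR 4.0.16 for the TMM factors.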

Additional observations from a re-analysis of the deposited data

How the results depend on the processing

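No paired analysis was possible because each group is 1 library, and leaving out a replicate was not possible for the same reason. Against 2485 genes higher in MPC and 1528 in fiSC, 19 alternatives were run (17 planned, 2 added after seeing the data). TMM factors (1.15 for MPC and 0.868 for fiSC) gave 1592 genes higher in MPC, a minimum of 50 CPM gave 1054, and a 3-fold rule gave 1068 in MPC and 854 in fiSC. All other counts stayed within 1.5 times, from 1855 (pseudocount of 10 CPM) to 3197 (total without mitochondrial, ribosomal and stress genes) in MPC and from 1039 (at least 50 CPM) to 2170 (TMM) in fiSC. Of 140 named genes past 2-fold, 122 stayed past it in the same direction under all 19. The 3-fold rule, the minimum of 50 CPM and the setting with no filter on low genes leave the log2 ratios unchanged. They could therefore not alter this count. Many of the genes were named for large ratios in these same data, so the count is no independent check.

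Col1a1, a gate gene, turned to -0.39 on the log2 scale with fibroblast genes under 0.1% and to -0.43 without the Crabp1 cells. The median of ribosome biogenesis turned to 0.053 with at least 4 Pax7 UMIs, 0.15 with no cycle gate and 0.14 with the gate set after thinning. The median of the measured Wnt targets, 0.63 over 4 genes, was -0.18 over 3 genes with TMM and -2.26 over 2 genes at 50 CPM. The CDK inhibitor median of -0.17 was 0.44 with no cycle gate and 0.11 against fiSC cells of low stress share, and the Notch median of -0.01 was above 0 in 10 of the 19 alternatives, up to 0.33. The causes were not tested. Depth limits genes under 10 CPM, and with no second library the spread between animals or cultures is unknown.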
